A study of Mus musculus with 6 samples.

Results

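Transcripts of 10 transcription factors that direct keratinocyte stratification and differentiation were followed in mouse back epidermis after deletion of Spry1. The factors were chosen by gene name: Trp63, Klf4, Klf5, Grhl1, Grhl3, Ovol1, Gata3, Cebpa, Prdm1 and Zfp750. All 10 were among the 54532 genes of the expression table, and all 10 were tested, since their mean reached 1 FPKM (fragments per kilobase of gene, scaled to sequencing depth), as it did for 12629 genes. Expression was measured by RNA-seq in 3 Control samples, with both Spry1 alleles floxed (Spry1flox/flox), and in 3 Spry1_KO samples, which were Spry1flox/flox and also carried K14-Cre-ERT2. That transgene is a tamoxifen-dependent Cre recombinase under the keratin 14 promoter of basal keratinocytes. Both groups received oral tamoxifen, 0.1 mg per g, with 4 doses in each of 4 weeks. No group had Cre alone, so Cre and the loss of Spry1 cannot be told apart, and the strain, age and sex were not stated. Spry1 encodes an inhibitor of growth factor signalling through ERK.

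The epidermis renews from a basal layer whose cells stop dividing, move up through the spinous and granular layers and die to form the cornified layer. p63, the product of Trp63, holds the basal program of stratified epithelia and also switches on regulators of differentiation, among them Zfp750. Klf4, Grhl1, Grhl3, Ovol1, Gata3, Cebpa, Prdm1 and Zfp750 act mainly in suprabasal or terminally differentiating cells, where they drive barrier genes or shut off the progenitor program, while Klf5 is mainly a factor of proliferating basal cells.

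Promoter sequences of 6 of the 10 factors were found among the RefSeq promoters of GRCm38.p6, each running from 250 bases before a transcription start to 50 bases after it. The sequences printed here are those of Gata3 and Grhl1, which passed the test under every alternative tried, and of Grhl3, the paralog of Grhl1 that did not pass. Capitals mark every match, on either strand, to any of 8 motifs in short form. Grainyhead-like factors were searched as AACCNGTT and the dimers of Fos and Jun as TGANTCA. The zinc fingers of the Gata family were searched as AGATAA, those of the Klf family as CACCC, and the GC box of Sp and Klf factors as GGGCGG. For the C/EBP family the letters were TTGCNNAA, for Ovol factors they were CCGTTA, and the letters CCGGAA stood for ETS factors such as Elf3.
Gata3, chr2:9878551-9878850, minus strand: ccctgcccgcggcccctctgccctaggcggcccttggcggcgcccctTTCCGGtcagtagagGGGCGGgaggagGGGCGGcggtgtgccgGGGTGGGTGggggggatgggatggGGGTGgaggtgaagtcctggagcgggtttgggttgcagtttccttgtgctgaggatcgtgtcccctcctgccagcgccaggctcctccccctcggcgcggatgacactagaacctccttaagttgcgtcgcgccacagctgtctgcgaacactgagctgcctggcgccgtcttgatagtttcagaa
Grhl1, first start, chr12:24572037-24572336, plus strand: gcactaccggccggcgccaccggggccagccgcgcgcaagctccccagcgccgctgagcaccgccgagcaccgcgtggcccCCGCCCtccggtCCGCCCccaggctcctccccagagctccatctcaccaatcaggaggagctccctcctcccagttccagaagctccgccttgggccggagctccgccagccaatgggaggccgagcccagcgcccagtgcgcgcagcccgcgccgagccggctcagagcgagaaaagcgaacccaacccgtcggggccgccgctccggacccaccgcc
Grhl1, second start, chr12:24580469-24580768, plus strand: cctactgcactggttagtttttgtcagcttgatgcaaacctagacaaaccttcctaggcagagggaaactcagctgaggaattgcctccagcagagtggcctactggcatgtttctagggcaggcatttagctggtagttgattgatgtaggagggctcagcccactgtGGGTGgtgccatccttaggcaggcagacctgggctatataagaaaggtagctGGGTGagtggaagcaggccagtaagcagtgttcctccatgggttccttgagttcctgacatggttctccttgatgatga
Grhl3, chr4:135573583-135573882, minus strand: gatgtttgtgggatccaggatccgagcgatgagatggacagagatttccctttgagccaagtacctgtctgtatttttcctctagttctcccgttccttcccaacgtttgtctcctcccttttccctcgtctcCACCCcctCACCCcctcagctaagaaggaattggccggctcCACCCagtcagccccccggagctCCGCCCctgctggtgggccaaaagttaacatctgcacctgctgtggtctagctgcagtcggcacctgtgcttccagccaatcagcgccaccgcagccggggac

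The Gata3 window held 3 CACCC matches, of which a neighbouring pair shares a base, 2 GC boxes and 1 ETS match. CACCC occurs in 57.5%, the GC box in 35.7% and CCGGAA in 14.9% of the 32851 promoters of this length. The first Grhl1 window held 2 GC boxes and the second 2 CACCC matches, and the Grhl3 window held 3 CACCC matches and 1 GC box. The Grainyhead, AP-1, GATA, C/EBP and Ovol letters, found in 2.09%, 7.81%, 11.2%, 10.8% and 2.76% of all promoters, were in none of these 4 windows. The 2 starts of Grhl1 differ in base composition, with 75.3% G or C and 35 CpG in the first window and 51.3% and 0 CpG in the second, where the median promoter has 52.7% and 7. FPKM values are per gene, so they do not separate the starts. A match is a description of the letters only, and other forms of a site were not searched.

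Spry1 itself was low in every knockout sample, at 29.4 ± 4.45 FPKM in Control and 1.27 ± 0.213 in Spry1_KO (SD, n = 3 each). Of all tested genes 54.0% passed (limma, Benjamini-Hochberg adjusted p under 0.05), with 3736 higher (29.6%) and 3079 lower (24.4%) in Spry1_KO, or 2055 and 4470 (51.7% in all) after TPM scaling, which gives every sample the same FPKM sum and moved the median log2 fold change of all genes by -0.25. Recovered reads numbered 18383323 to 21024716 per sample. Control replicate 3 stood apart from the other controls on the second principal component, which held 8.48% of the variance. Spry1_KO replicate 2 differed from the other 5 samples in Y-linked transcripts (Eif2s3y at 19.3 FPKM, against at most 0.203) and in Xist (1.31 FPKM, against 20.0 to 89.1). By these transcripts that library reads as male and the other 5 as female, so sex was not balanced between the groups. The tissue label was checked against 6 keratinocyte markers. Of these Krt5, Krt14 and Krt1 rose, Krt10 and Krt15 fell and Dsp did not pass (83.3% passed, against 54.0% of all genes). The calls of Krt5 and Krt10 were lost with no filter on low values and with a replicate block. That of Krt5 was also lost when Control replicate 3 and Spry1_KO replicate 2 were both left out (limma adjusted p = 0.0623). The 6 markers summed to 15408 to 17466 FPKM in Control and 22467 to 28367 in Spry1_KO. Sums in the same order were 7.93 to 11.0 and 207 to 211 FPKM for 5 melanocyte markers, 990.3 to 1633 and 395 to 580.1 for 5 Langerhans cell markers, 13.2 to 55.1 and 0.990 to 2.15 for 6 muscle markers, 7.59 to 16.4 and 1.995 to 6.81 for 7 fibroblast markers, and 0.575 to 3.41 and 0.571 to 1.18 for 5 endothelial markers. Whether samples are separate animals is not stated, so each p-value reflects only the spread among these libraries, which could be technical in part. By its Y-linked transcripts and Xist, Spry1_KO replicate 2 is not a technical repeat of the other knockouts.

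Of the 10 factors, 3 fell (Gata3, Grhl1 and Trp63) and 1 rose (Zfp750), while Klf4, Klf5, Grhl3, Ovol1, Cebpa and Prdm1 did not pass. A share of 4 in 10 is to be read against the 54.0% of all tested genes that passed, and against 52.4% of the 757 tested genes to which the deposited table assigns a transcription factor family. Their median log2 fold change was -0.21, against 0.03 for all genes, and their median size of change was 0.40, as it was over all genes. Groups did not overlap for 4 of them, Gata3, Grhl1 and Cebpa (lower) and Prdm1 (higher), where 64.2% of tested genes had groups that did not overlap (34.9% higher and 29.4% lower). With array weights 5 of 10 passed, against 62.0% of all genes, and with a replicate block 3 of 10, against 46.2%. In whole epidermis, fewer cells of a type and less RNA per cell cannot be told apart.

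**Figure D1:**
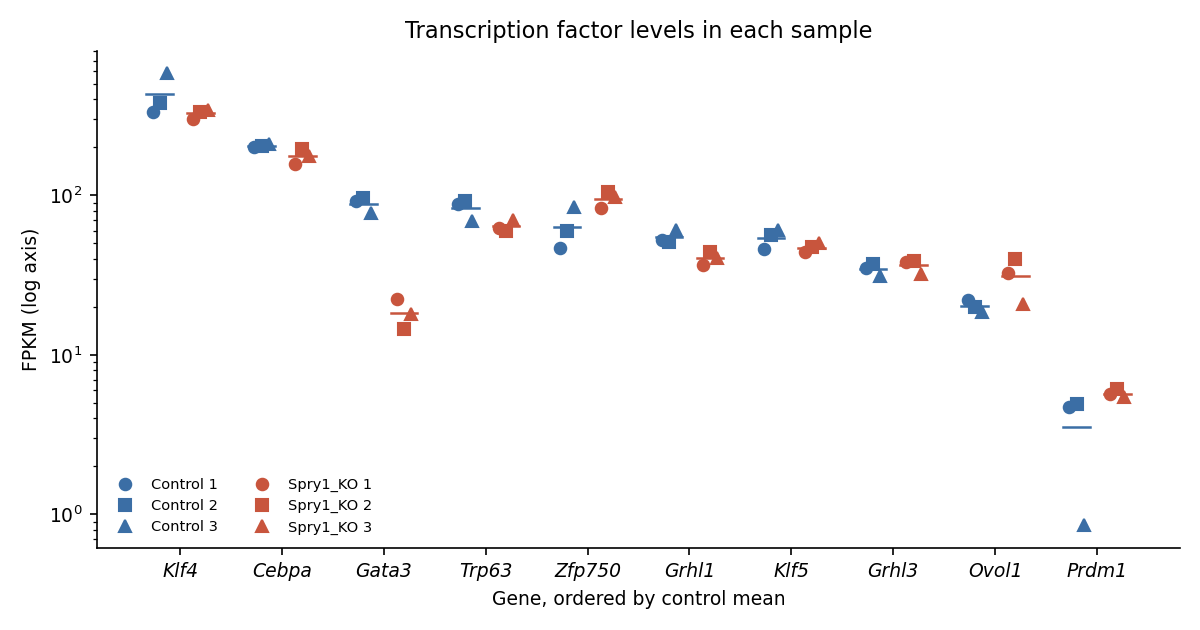
FPKM of the 10 factors in each of the 6 samples, on a log axis, with a horizontal line at each group mean; marker shape gives the replicate number. The groups of Gata3 are far apart, and Prdm1 in Control replicate 3 (0.855 FPKM) lies far below every other sample.

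Trp63 was modestly lower in the knockouts. Its 8 annotated transcripts (chromosome 16, 25683763 to 25892102 in GRCm38) are summed in its value, so p63 forms with and without the amino-terminal activation domain are not separated. Levels were 88.1, 93.0 and 69.6 FPKM in Control and 62.7, 59.6 and 70.3 in Spry1_KO. Control replicate 3 lay within the knockout range, so the groups overlapped (limma log2 fold change -0.37 ± 0.13 SE, adjusted p = 0.0491; 95% interval of the ratio 0.625 to 0.961). That call was lost without any single library except Control replicate 3 (limma adjusted p from 0.0541 to 0.144), with a replicate block (0.115) and with no filter on low values (0.0858). When Control replicate 3 was left out, the limma adjusted p was 0.0063.

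Both paralogs of Trp63 rose, Trp53 not under TPM scaling. Trp73, at a far lower level, read 3.42, 3.68 and 3.58 FPKM in Control and 10.7, 7.49 and 6.59 in Spry1_KO, with every knockout above every control (limma log2 fold change 0.996 ± 0.16 SE, adjusted p = 0.00214). Trp53, the p53 tumour suppressor, read 15.9, 18.3 and 18.7 FPKM in Control and 29.0, 23.6 and 24.4 in Spry1_KO and rose by 0.51 on the log2 scale, a call that TPM scaling removed (adjusted p = 0.218 in limma). Trp63 stayed above both of them per length in every sample. Over all families, 7 of 21 tested paralogs rose and 6 fell (61.9%, against 54.0% of all genes), with a median log2 fold change of 0.09. Under TPM scaling 4 paralogs rose and 8 fell, where 51.7% of all genes passed, 2055 higher and 4470 lower.

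Of the Grainyhead-like factors, Grhl1 fell and Grhl3 did not pass. Grhl1, which sustains desmosomal cadherin expression (chromosome 12, 24572283 to 24617391), read 52.8, 51.3 and 60.5 FPKM in Control and 36.5, 44.1 and 40.4 in Spry1_KO. Every knockout sample was below every control sample (limma log2 fold change -0.44 ± 0.10 SE, adjusted p = 0.0117; 95% interval of the ratio 0.622 to 0.879). It passed in limma under all 14 alternatives, at adjusted p from 0.0035 to 0.042.

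Grhl3, needed for barrier formation and wound closure (chromosome 4, 135541888 to 135573630), read 35.0, 37.1 and 31.4 FPKM in Control and 38.2, 38.8 and 32.4 in Spry1_KO. The groups overlapped, and the interval of the ratio lay on both sides of 1 (limma log2 fold change 0.08 ± 0.10 SE, adjusted p = 0.561; 0.888 to 1.25). Its log2 fold change turned negative under TPM scaling (-0.20) and when Control replicate 3 and Spry1_KO replicate 2 were both left out (-0.03). Grhl2, the remaining family member, averaged 10.4 FPKM in Control and 11.7 in Spry1_KO (limma log2 fold change 0.16 ± 0.09 SE, adjusted p = 0.192). It passed only with array weights (limma adjusted p = 0.0337). Within each sample Grhl1 stood at 1.39 to 1.93 times Grhl3 in Control and at 0.955 to 1.25 times Grhl3 in Spry1_KO, so the ratio was lower in every knockout.

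Klf4, the barrier factor of the differentiating layers (chromosome 4, 55527143 to 55532466), was the most abundant of the 10. Levels reached 333, 382 and 583 FPKM in Control and 300.5, 334 and 346 in Spry1_KO. Control replicate 3 stood far above the other controls, and the groups overlapped (limma log2 fold change -0.37 ± 0.21 SE, adjusted p = 0.181; 95% interval of the ratio 0.549 to 1.10). Leaving out Control replicate 3 brought the log2 fold change to -0.13.

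Klf5 (chromosome 14, 99298691 to 99315036) read 46.1, 56.3 and 60.8 FPKM in Control and 44.2, 47.3 and 50.1 in Spry1_KO. The groups overlapped and the difference did not pass (limma log2 fold change -0.20 ± 0.12 SE, adjusted p = 0.203; 95% interval of the ratio 0.718 to 1.06), except under TPM scaling (-0.47, limma adjusted p = 0.0279). The log2 ratio of Klf4 to Klf5 within a sample averaged 2.96 ± 0.27 in Control and 2.79 ± 0.03 in Spry1_KO (SD, n = 3 each), with overlap.

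Among the other Klf genes, Klf9, a glucocorticoid- and clock-responsive factor, fell from 36.8, 37.0 and 39.9 FPKM to 7.87, 9.40 and 7.02 FPKM (limma log2 fold change -2.10 ± 0.11 SE, adjusted p = 2.85e-05). Klf2, a factor of quiescent endothelial and lymphoid cells, read 7.13, 9.03 and 50.2 FPKM in Control and 1.70, 1.68 and 1.35 in Spry1_KO. Control replicate 3 was several times the other controls, and the log2 fold change of -2.65 (adjusted p = 0.0125, limma) came to -1.81 without that library. Klf11 fell by 1.11 on the log2 scale and Klf13 rose by 0.43, the latter not under TPM scaling (limma adjusted p = 0.18). Klf6, an injury-responsive factor that averaged 85.6 and 67.2 FPKM, was not called (limma log2 fold change -0.29 ± 0.23 SE, adjusted p = 0.334), nor were Klf3, Klf10 and Klf16 (adjusted p of 0.744, 0.0549 and 0.7 in limma). Of the 14 alternatives, 5 gave a call for Klf10, 2 for Klf16 and 1 for Klf3.

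Ovol1, a zinc finger repressor that helps keratinocytes leave the cell cycle (chromosome 19, 5549136 to 5560646), read 22.3, 19.9 and 18.6 FPKM in Control and 32.5, 40.2 and 20.9 in Spry1_KO. Spry1_KO replicates 1 and 2 were above every control, and replicate 3 lay within the control range. The difference did not pass (limma log2 fold change 0.55 ± 0.22 SE, adjusted p = 0.0716), although without Spry1_KO replicate 3 it did (0.81, limma adjusted p = 0.00555), as it did with array weights (0.034). The opposite-strand pseudogene Gm31166 covers 19.8% of its exon bases and averaged at most 0.106 FPKM in a group. Ovol2, its paralog, read 4.596, 4.68 and 8.21 FPKM in Control and 3.86, 4.01 and 1.78 in Spry1_KO. Ovol2 was not called either (limma log2 fold change -0.70 ± 0.29 SE, adjusted p = 0.0763), except under TPM scaling (limma adjusted p = 0.0473). The log2 ratio of Ovol1 to Ovol2 was 2.25, 2.06 and 1.17 in Control and 3.04, 3.29 and 3.48 in Spry1_KO, so every knockout had the larger ratio.

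Gata3 had the largest difference of the 10 factors. It is a zinc finger factor of T cells and of the inner root sheath of the hair follicle that also supports lipid synthesis in the epidermal barrier (chromosome 2, 9857078 to 9890034). It read 92.8, 96.3 and 77.5 FPKM in Control and 22.5, 14.6 and 18.0 in Spry1_KO. Every knockout sample was far below the lowest control (limma log2 fold change -2.23 ± 0.16 SE, adjusted p = 9.78e-05; 95% interval of the ratio 0.163 to 0.280). All 14 alternatives kept the call, with log2 fold changes from -2.54 to -2.08. By size of change Gata3 stood at percentile 97.0 of all tested genes, and it had rank 9 among the falls of the 757 genes with a transcription factor family. Its level had rank 15 of those 757 in Control and rank 118 in Spry1_KO.

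The exons of Gata3 share 3.90% of their bases with Gm13256 on the opposite strand and 1.94% with 9230102O04Rik on the same strand, which averaged 1.18 and 2.14 FPKM in Control. Gata6, the only other Gata gene that passed the filter, a factor of the upper hair follicle and sebaceous duct, read 5.24, 5.65 and 2.74 FPKM in Control and 2.52, 2.55 and 1.97 in Spry1_KO (limma log2 fold change -0.69 ± 0.23 SE, adjusted p = 0.0378). Its call was lost without any 1 library but Control replicate 3 (adjusted p of 0.0719 to 0.114 in limma) and with no filter (0.0853). Gata1, Gata2, Gata4 and Gata5 averaged under 0.5 FPKM in both groups, Gata4 and Gata5 being listed at 0 in every sample.

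Markers of other cells that express Gata3 moved with it in part. Of 7 T cell markers, 4 fell (Trdc, Cd3e, Cd3g and Cd3d), 1 rose (Trac) and Cd2 and Lck did not pass. The share that passed was 71.4%, against 54.0% of all genes (29.6% higher and 24.4% lower). FPKM of the 7 T cell markers summed to 49.2 to 68.4 in Control and 19.3 to 35.9 in Spry1_KO. Gata3 alone read 77.5 to 96.3 and 14.6 to 22.5. Markers of the inner root sheath were near 0, with sums of 2.26 to 3.08 FPKM over 7 genes in Control and 4.86 to 7.65 in Spry1_KO, and the only tested one, Tchh, rose (limma log2 fold change 0.49 ± 0.16 SE, adjusted p = 0.0379). The Tchh call was lost in 7 of 14 alternatives, namely TPM scaling (limma adjusted p = 0.218), a replicate block (0.0912), no filter (0.0878) and leaving out Control replicate 1 or 2 or Spry1_KO replicate 1 or 2 (0.0693 to 0.111). The rise of Trac was lost with no filter (limma adjusted p = 0.0579) and when Control replicate 1 or Spry1_KO replicate 1 or 3 was left out (0.0546 to 0.0782). Sums over 4 markers of innate lymphoid cells were 33.5 to 44.3 and 38.4 to 40.8 FPKM. Of the 3 tested, 1 rose, 1 fell and 1 did not pass (66.7% passed, against 54.0% of all genes). The part of these cells in the fall of Gata3 was not tested.

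Cebpa, a factor of keratinocyte growth arrest and of sebaceous and myeloid cells (chromosome 7, 35119293 to 35121928), read 201.3, 204 and 209 FPKM in Control and 158, 197 and 176 in Spry1_KO. Every knockout sample was below every control, but the difference was small and did not pass (limma log2 fold change -0.22 ± 0.11 SE, adjusted p = 0.123; 95% interval of the ratio 0.722 to 1.02). TPM scaling alone gave a call (-0.50, limma adjusted p = 0.00796). Cebpb, a paralog of differentiating and inflamed keratinocytes, rose from 82.6, 84.7 and 58.6 FPKM to 119, 159.7 and 148 FPKM (limma log2 fold change 0.92 ± 0.18 SE, adjusted p = 0.00458). Cebpd, which restrains keratinocyte proliferation, rose from 7.98, 7.30 and 5.82 FPKM to 16.0, 19.0 and 13.8 FPKM (limma log2 fold change 1.10 ± 0.15 SE, adjusted p = 0.000973). Cebpz rose by 0.38 on the log2 scale, a call that TPM scaling removed (limma adjusted p = 0.31). Cebpg did not pass (limma adjusted p = 0.132), except under TPM scaling (0.0151).

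Per length, Cebpa stood well above Cebpb in Control and closer to it in Spry1_KO. The log2 ratio of Cebpa to Cebpb was 1.28, 1.27 and 1.83 in Control and 0.40, 0.30 and 0.25 in Spry1_KO, with no overlap. Of 10 sebocyte markers 4 rose and 6 did not pass (40% passed, against 54.0% of all genes, where 29.6% rose). Their sums were 52.9 to 143 FPKM in Control and 169.6 to 250.1 in Spry1_KO. Of 9 tested macrophage and neutrophil markers 7 rose and 2 fell (100% passed, against 54.0% of all genes). Sums over all 10 were 36.1 to 57.1 and 563 to 1205 FPKM, most of the latter from S100a8 and S100a9, which keratinocytes also express. Their part in the values of Cebpa, Cebpb and Cebpd was not tested.

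Prdm1, which encodes the repressor Blimp1 of terminally differentiating and sebaceous cells (chromosome 10, 44437177 to 44528501), was the least abundant factor. Its levels were 4.73, 4.94 and 0.855 FPKM in Control and 5.67, 6.07 and 5.43 in Spry1_KO. Every knockout sample was above every control, but by little for Control replicates 1 and 2. The difference did not pass (limma log2 fold change 0.75 ± 0.43 SE, adjusted p = 0.177), and leaving out Control replicate 3 brought the log2 fold change to 0.20. The low value of that library rests on 93 recovered reads (exact Poisson 95% interval 75.1 to 114, counting error only), where Control replicates 1 and 2 had 481 and 504. Control replicate 3 also had the lowest sum of sebocyte markers, 52.9 FPKM against 108 and 143, and the part of sebocytes was not tested.

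Of 4 genes described as repressed by Prdm1, 2 passed, a share near the 54.0% of all genes, of which 24.4% fell. Both were lower, Nfat5, a factor of osmotic stress (limma log2 fold change -0.71 ± 0.16 SE, adjusted p = 0.00785), and Dusp16, a phosphatase of stress kinases (limma log2 fold change -0.44 ± 0.12 SE, adjusted p = 0.0211). The call of Dusp16 was lost without Control replicate 1 or 2 or Spry1_KO replicate 1 or 3 (limma adjusted p from 0.0656 to 0.0696). Fos, an immediate early AP-1 subunit, read 726, 920.4 and 1655 FPKM in Control and 592, 395 and 89.9 in Spry1_KO (limma log2 fold change -1.90 ± 0.69 SE, adjusted p = 0.0533). It did pass under TPM scaling (limma adjusted p = 0.0376), with limma-voom (0.0353) and when Spry1_KO replicate 1 was left out (0.0302). Myc, a factor of progenitor growth, read 25.04, 26.6 and 59.7 FPKM in Control and 55.8, 51.0 and 46.4 in Spry1_KO (limma log2 fold change 0.56 ± 0.31 SE, adjusted p = 0.17), and rose without Control replicate 3 (limma adjusted p = 0.000618).

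Zfp750, which p63 switches on and which in turn activates differentiation genes (chromosome 11, 121510978 to 121519333), was the only one of the 10 that rose. It read 47.0, 59.5 and 85.2 FPKM in Control and 83.1, 104 and 97.6 in Spry1_KO. Control replicate 3 lay inside the knockout range (limma log2 fold change 0.60 ± 0.21 SE, adjusted p = 0.0493; 95% interval of the ratio 1.07 to 2.16). It passed under 5 of 14 alternatives, among them those without Control replicate 3 (0.83, limma adjusted p = 0.00419). No call was made without any other single library (limma adjusted p from 0.0657 to 0.134), under TPM scaling (0.283), median-ratio scaling (0.054) and no filter (0.0995), and with a pseudocount of 0.1 (0.0504).

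**Figure D2:**
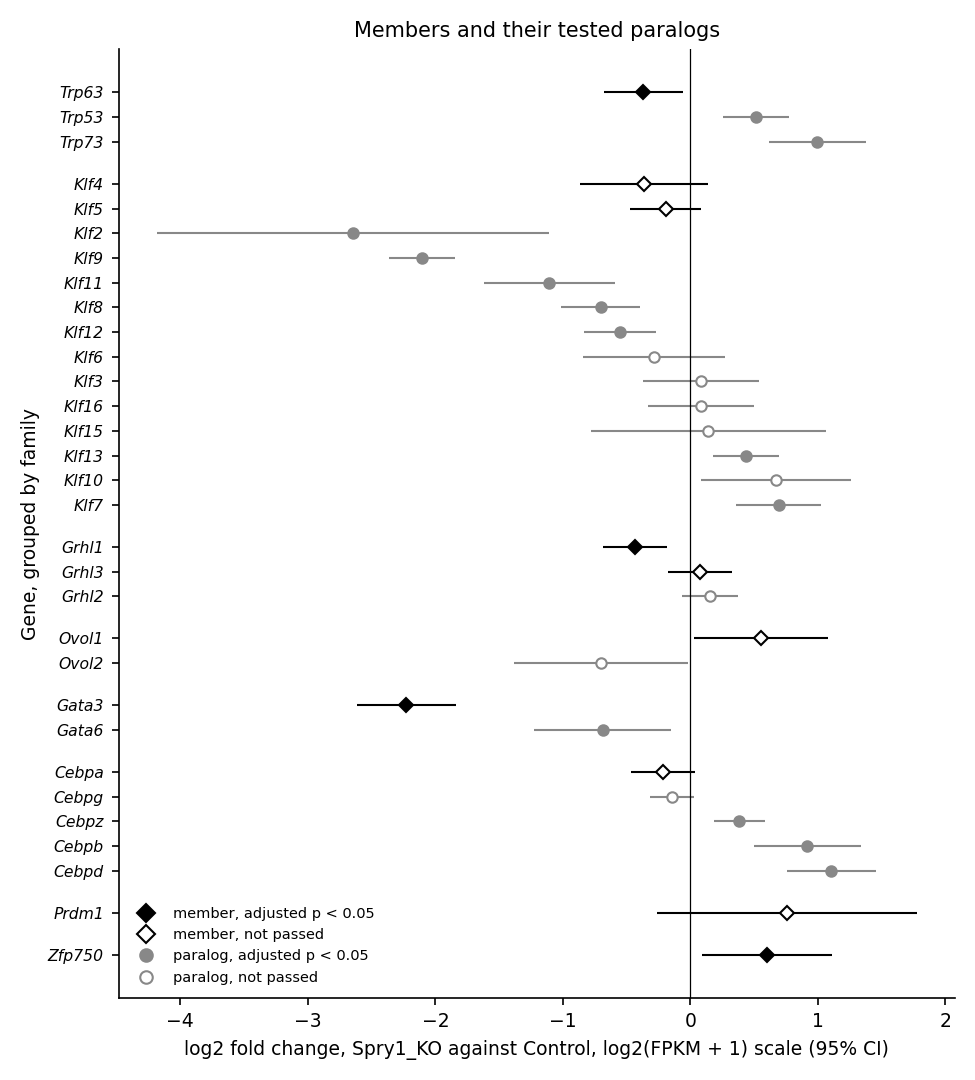
Log2 fold changes with 95% confidence intervals for the 10 factors (diamonds) and their 21 tested paralogs (circles), grouped by gene family, from the limma fit over all genes; filled symbols passed at an adjusted p under 0.05. Trp63 lies left of zero with Trp53 and Trp73 to its right (Trp53 does not pass under TPM scaling), Cebpb and Cebpd lie to the right of Cebpa, and Gata3 lies at -2.23.

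Order of abundance changed mainly through Gata3. In Control the mean FPKM ran from Klf4 (433) over Cebpa (205), Gata3 (88.9), Trp63 (83.6), Zfp750 (63.9), Grhl1 (54.9), Klf5 (54.4), Grhl3 (34.5) and Ovol1 (20.3) to Prdm1 (3.51). Neighbours from Gata3 to Klf5 in that order had overlapping ranges. In Spry1_KO the order was Klf4 (327), Cebpa (177), Zfp750 (95.05), Trp63 (64.2), Klf5 (47.2), Grhl1 (40.3), Grhl3 (36.5), Ovol1 (31.2), Gata3 (18.4) and Prdm1 (5.72). There, Zfp750 and Trp63 had separate ranges, and neighbours from Grhl1 to Gata3 overlapped.

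Ratios within a sample hardly depend on the scaling between samples (a pseudocount of 0.1 FPKM was added), and 14 were computed, of each other factor to Trp63 and of 5 pairs of paralogs. With 3 samples against 3 the exact two-sided permutation test cannot go below p = 0.1, and 8 ratios reached that value (Benjamini-Hochberg adjusted p of 0.175 over the 14), so none could pass. Groups of single genes did not overlap for 64.2% of all tested genes, and no such share was computed over ratios of other genes. Relative to Trp63, Gata3 was lower in every knockout sample, with log2 ratios of 0.07, 0.05 and 0.15 in Control and -1.47, -2.02 and -1.96 in Spry1_KO. Zfp750 was higher relative to Trp63, at -0.91, -0.64 and 0.29 in Control and 0.41, 0.81 and 0.47 in Spry1_KO. Ovol1, Grhl3 and Prdm1 were likewise higher relative to Trp63 without overlap. Ratios of Klf4, Klf5, Grhl1 and Cebpa to Trp63 overlapped between the groups (exact permutation p of 0.5 to 1).

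**Figure D3:**
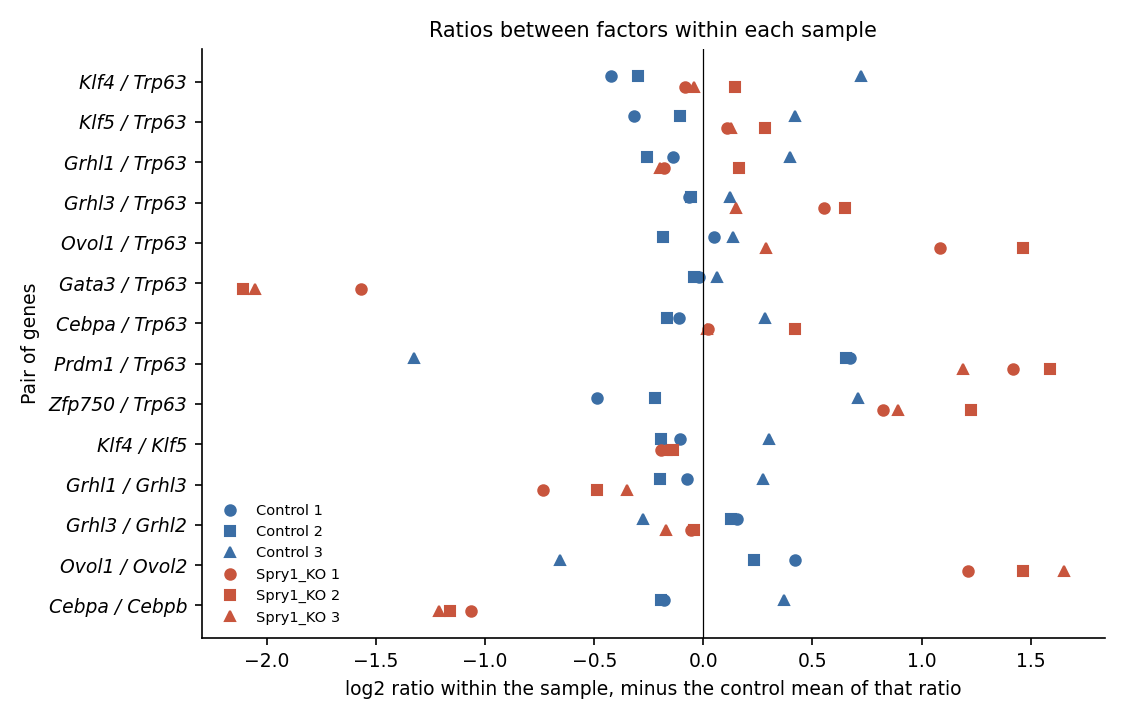
Log2 ratio between the FPKM values of 2 genes within each of the 6 samples (pseudocount of 0.1), shifted so that the control mean of each ratio is at zero; blue points are Control and red points Spry1_KO. The groups are separate for 8 of 14 ratios, with Gata3 to Trp63 and Cebpa to Cebpb lower and Ovol1 to Ovol2 and Zfp750 to Trp63 higher in the knockouts. For single genes, groups did not overlap for 64.2% of all tested genes.

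Control replicate 3 was the highest or lowest of the 3 controls for all 10 factors, as it was for 82.1% of all tested genes. Against the mean of the other controls it read 0.769 times for Trp63, 1.599 times for Zfp750, 1.63 times for Klf4 and 0.177 times for Prdm1. Its value lay inside the knockout range for Trp63 and Zfp750. For Lor, which encodes the late envelope protein loricrin, it read 238 FPKM, against 1135 and 995 in the other controls and 523 to 597 in the knockouts.

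Of 34 tested genes on a list of 35 other regulators of epidermal fate, 11 rose and 8 fell (55.9%, against 54.0% of all genes), with a median log2 fold change of -0.07. Elf3, an ETS factor of epithelial differentiation, read 0.198, 0.839 and 0.602 FPKM in Control and 21.1, 15.5 and 24.7 in Spry1_KO (limma log2 fold change 3.79 ± 0.21 SE, adjusted p = 3.99e-05). Runx1, a factor of hair follicle stem cells and injured epidermis, and Bnc1, a zinc finger gene of basal cells, rose by 1.90 and 1.26 on that scale, and all knockout values of these 3 genes lay above all control values. The fallen count dropped to 4 when Control replicate 1 was left out, and to 5 with a replicate block or when Control replicate 2 or either of Spry1_KO replicates 1 and 2 was left out. In those settings 44.6% to 46.9% of all genes passed. Under TPM scaling 8 rose and 12 fell, where 51.7% of all genes passed, 2055 higher and 4470 lower.

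Genes described as targets of p63 moved in both directions. Of 19 tested of 20, 6 rose and 9 fell (78.9%, against 54.0% of all genes, of which 29.6% rose and 24.4% fell), with a median of -0.31 against 0.03. Under TPM scaling 4 rose and 10 fell, where 51.7% of all genes passed, 2055 higher and 4470 lower. Fgfr2, a keratinocyte growth factor receptor, fell from 35.9, 36.4 and 35.0 FPKM to 9.76, 8.56 and 9.52 FPKM (limma log2 fold change -1.84 ± 0.08 SE, adjusted p = 1.41e-05). Dst and Col17a1, both of the hemidesmosome that anchors basal cells, fell by 1.48 and 1.49 on the log2 scale. Cdh3, which encodes P-cadherin, rose from 10.2, 10.9 and 11.4 FPKM to 28.6, 25.6 and 24.98 FPKM (limma log2 fold change 1.21 ± 0.09 SE, adjusted p = 8.68e-05). Summed over the list, FPKM lay between 9613 and 11090.5 in Control and between 18987 and 23367 in Spry1_KO, most of it from Krt14 and Krt5, the basal keratin pair, which averaged 11064 and 6878 FPKM in the knockouts.

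Described Grainyhead targets were likewise split, with 3 of 10 higher and 4 lower (7 of 10, against 54.0% of all genes; median -0.23 against 0.03). Under TPM scaling it was 3 and 7, where 51.7% of all genes passed and more of them were lower (4470) than higher (2055). Dsg1a fell from 397, 359.9 and 337 FPKM to 79.1, 102 and 103 FPKM (limma log2 fold change -1.94 ± 0.13 SE, adjusted p = 7.90e-05). Dsg1b, another desmoglein 1 gene, rose from 24.9, 29.3 and 24.9 FPKM to 42.5, 61.5 and 49.7 FPKM (limma log2 fold change 0.92 ± 0.15 SE, adjusted p = 0.00201). They are close copies, so the split of reads between them is uncertain. Tgm1, the transglutaminase that cross-links the cornified envelope, rose by 1.73 on the log2 scale.

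Of 19 tested products of the suprabasal and granular layers, 7 rose and 6 fell (68.4%, against 54.0% of all genes; median 0.13 against 0.03). Leaving out Control replicate 3 gave 8 and 9, where 58.0% of all genes passed. Casp14, a protease that processes filaggrin, rose from 24.1, 25.1 and 29.5 FPKM to 138, 165 and 149.8 FPKM (limma log2 fold change 2.48 ± 0.11 SE, adjusted p = 1.70e-05). Flg, which encodes filaggrin, rose from 2.53, 2.30 and 0.493 FPKM to 28.0, 30.4 and 28.8 FPKM (limma log2 fold change 3.53 ± 0.31 SE, adjusted p = 0.000193). Sbsn, which encodes suprabasin, fell by 1.44, and Lipm, a lipase of the granular layer, by 1.13. The fallen count was 3 with no filter, where 27.2% of all genes passed. It was 4 with a replicate block, without Control replicate 2 or without Spry1_KO replicate 1, where 45.0% to 46.9% of all genes passed.

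**Figure D4:**
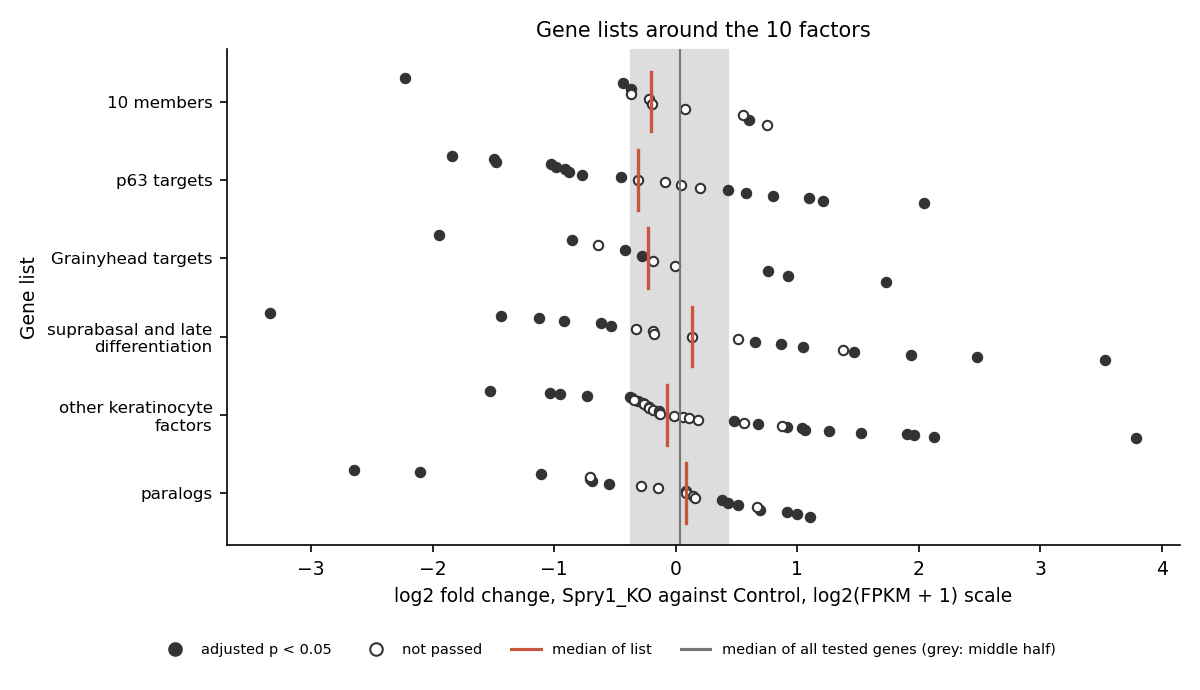
Log2 fold change of each tested gene (points, filled where the adjusted p was under 0.05) for the 10 factors and 5 gene lists; red bars are list medians, the grey line the median of all tested genes (0.03) and the grey band their interquartile range. Apart from Gata3 the 10 factors lie between -0.44 and 0.75, and the target and differentiation lists reach beyond that range on both sides.

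**Figure D5:**
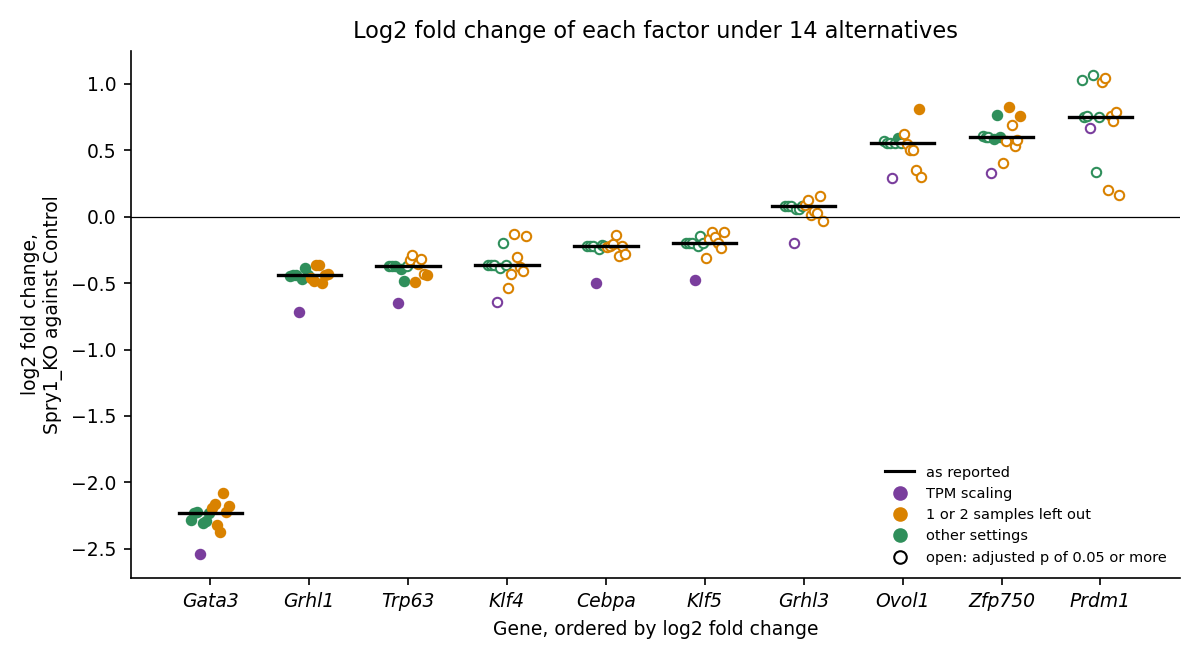
Log2 fold change of each factor as reported (black bars) and under 14 alternatives (points, open where the adjusted p was 0.05 or more), with genes ordered by log2 fold change. Gata3 and Grhl1 are filled throughout, Grhl3 falls on both sides of zero, and TPM scaling (purple) lowers all 10.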

How the data were processed

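RNA-seq of 3 Control and 3 Spry1_KO samples was deposited by the authors as 1 table of FPKM values. HISAT2 2.0.5, featureCounts 1.5.0-p3 and GRCm38 are named per the submitters' processing notes. Annotation release, strandedness, filters and FPKM formula are not given in these sources, and reads from overlapping genes on either strand cannot be told apart. GENCODE M21 (GRCm38) gave positions and exon lengths for 54495 IDs, and 27 symbols changed to dates were restored. Read numbers were recovered from FPKM and exon length, where 97.0% to 97.3% of the values were whole within 0.1 reads (20% by chance). The sample total behind the FPKM values, found in that step, was 98.8% to 102.9% of the recovered reads in Control. In Spry1_KO it was 88.1% to 95.6%, so FPKM was not scaled to depth alone. A smaller total gives a higher FPKM per read.

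Log2(FPKM + 1) values were fitted in limma 3.58.1 under R 4.3.3, with a variance trend and the genotype, for genes averaging 1 FPKM or more. Tests were two-sided, with Benjamini-Hochberg adjustment over all 12629 genes. This scale shrinks the differences of low genes. Ratios within samples were compared by exact permutation in scipy 1.17.1. The fit was tested on simulated data. There it called 13 of 65 genes with a set 1.5-fold difference, 51 of 63 with 2-fold and 61 of 61 with 4-fold. It called 17 of the 12377 genes with no set difference. Differences of 1.5-fold were mostly missed there. Almost all genes of that run had no set difference, whereas 54.0% of all tested genes passed here, so those shares do not carry over. How often differences of that size are missed in these data was not tested. A factor that did not pass is not shown to be unchanged. Replicates differed by more than sampling noise. Other settings tried were a smaller pseudocount (0.1), all genes unfiltered, scaling by median ratios or to TPM, limma-voom with TMM factors on the recovered reads, array weights, the replicate number as a block, and fewer samples.

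The factors, the gene and marker lists and the tests were chosen with earlier results of these data known. Named were all factors, paralogs averaging 5 FPKM or more, and up to 4 called genes of each list with the lowest p, of which some are not reported here. Ovol2 was named for its ratio. Gata6 and the low Gata genes, Fos, Myc, Lor, Krt5, Krt14 and the marker genes were named after their values were seen.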

Additional observations from a re-analysis of the deposited data

How the results depend on the processing

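Over the 14 alternatives 2 to 5 of the 10 factors passed, where 27.2% (no filter) to 62.0% (array weights) of all tested genes did. Of 140 values of single factors, 120 kept their side of the threshold, 16 lost the call and 4 gained it. Of the 120, 2 changed sign without a call, both for Grhl3 (-0.20 under TPM scaling, and -0.03 when Control replicate 3 and Spry1_KO replicate 2 were left out). Across the alternatives only Gata3 and Grhl1 passed throughout. The risen count was 1 as reported, 0 with a pseudocount of 0.1, with no filter and under median-ratio or TPM scaling, 2 with array weights, and 0 to 1 leaving out each sample. The fallen count was 3 as reported, 5 under TPM scaling, where Klf5 and Cebpa were added, and 2 to 3 leaving out each sample. Over all genes 2055 were higher and 4470 lower under TPM scaling, against 3736 and 3079 as reported. Leaving out each sample, 44.6% to 58.0% of all genes passed. Relative to the median of all genes, TPM scaling gave Trp63 -0.43, Grhl3 0.02 and Zfp750 0.55, against -0.40, 0.04 and 0.57 as reported.

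Residuals of same-numbered samples correlated at -0.10, -0.11 and -0.12, and no sample correlated best with its own number. With 3 samples in each group these values cannot exclude a pairing, which the labels do not state. With the replicate block 5834 genes passed in place of 6815, 2 factors fell and 1 rose. With a sample left out, the remaining 2 are assumed to vary like the other group. Reads behind a factor ranged from 93 (Prdm1) to 34672 (Klf4).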
